A study of Mus musculus with 8 samples.

Results

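The genes described here carry signals between the oocyte and the granulosa cells around it. They are 2 ligand genes, Nppc and Kitl, their receptor genes, Npr2 and Kit, and 2 gap junction genes, Gja1 and Gja4. They were chosen by name, and all 6 were found among the 35087 rows with a gene name in each table. The cKO group (n = 2 libraries) came from Hif1aflox/flox; Foxl2-CreERT2 females and the WT group (n = 6 libraries) from Hif1aflox/flox females without Cre, so the Hif1a alleles of both groups carried loxP sites. Foxl2-CreERT2 is a tamoxifen-inducible Cre driven by Foxl2, a gene of granulosa cells, and under genotype the labels describe these animals as a Hif1a knockdown. Both groups received 100 mg/kg tamoxifen daily over 5 days, beginning at an age of 3 weeks, and were sampled 7 days after dosing ended. Granulosa cells were cut from cryosections with a laser, and polyadenylated RNA was amplified by a Smart-seq2 protocol. No label links a library with its animal or with a stage of the follicle, so p-values measure the spread between these libraries, which may be technical, and are too small if libraries share an animal. Groups were taken from the titles, although all 8 described library names start with cKO, which leaves a doubt about the WT labels.

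C-type natriuretic peptide, the product of Nppc, is made by mural granulosa cells and binds the guanylyl cyclase encoded by Npr2, which is most active in the cumulus cells next to the oocyte. The cyclic GMP made there passes through gap junctions into the oocyte, where it inhibits the phosphodiesterase PDE3A, keeps cyclic AMP high and holds meiosis arrested. Gja1 encodes connexin 43, which joins granulosa cells to each other, and Gja4 encodes connexin 37, which joins the oocyte to its granulosa cells. Kitl encodes KIT ligand, a granulosa cell product that acts on the receptor KIT on oocytes and theca cells and supports oocyte growth.

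In GENCODE M21 (GRCm38), the ligand gene Nppc lies at chr1:86666291-86670571 on the minus strand and Kitl at chr10:100015630-100100416 on the plus strand. The receptor genes Npr2 and Kit lie at chr4:43631935-43651244 and chr5:75574916-75656722, both on the plus strand. The connexin gene Gja1 lies at chr10:56377330-56402513 on the plus strand and Gja4 at chr4:127311421-127314039 on the minus strand. Hif1a encodes a transcription factor subunit whose core DNA motif is ACGTG or GCGTG, so the promoters of the 6 genes were searched for these letters on both strands. The windows ran from 250 bases before to 50 bases after the RefSeq start site (300 bases, GRCm38.p6), and all 6 genes had one. A core was found once each in Nppc, Kitl, Kit and Gja1, every time as GCGTG on one strand or the other, and in neither Npr2 nor Gja4. Of 27025 genes with such a window, 43.8% held at least 1 core, and nothing particular to these genes is read from 4 of 6. The windows of Nppc and Gja1 are printed because these 2 genes had the closest patterns over the libraries, and that of Npr2 because it encodes the receptor for the Nppc product. Capitals mark the core, which begins 96 bases before the start site in Nppc and 97 bases before it in Gja1 (there as CACGC, the other strand). They lie at chr1:86670524-86670823 (minus strand), chr10:56377050-56377349 (plus strand) and chr4:43631685-43631984 (plus strand). A match is a description of letters and not a binding site.
Nppc: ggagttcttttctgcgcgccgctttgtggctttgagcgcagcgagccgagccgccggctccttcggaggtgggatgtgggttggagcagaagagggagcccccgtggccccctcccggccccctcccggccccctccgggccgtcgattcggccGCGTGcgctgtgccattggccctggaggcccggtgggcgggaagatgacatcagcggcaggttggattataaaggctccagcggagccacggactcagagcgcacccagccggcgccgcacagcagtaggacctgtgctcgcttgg
Gja1: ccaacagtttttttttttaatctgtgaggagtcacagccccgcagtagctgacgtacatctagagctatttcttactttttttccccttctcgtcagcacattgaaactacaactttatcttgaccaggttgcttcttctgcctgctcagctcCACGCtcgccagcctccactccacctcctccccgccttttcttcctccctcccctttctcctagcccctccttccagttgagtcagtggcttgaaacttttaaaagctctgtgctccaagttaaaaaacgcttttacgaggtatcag
Npr2: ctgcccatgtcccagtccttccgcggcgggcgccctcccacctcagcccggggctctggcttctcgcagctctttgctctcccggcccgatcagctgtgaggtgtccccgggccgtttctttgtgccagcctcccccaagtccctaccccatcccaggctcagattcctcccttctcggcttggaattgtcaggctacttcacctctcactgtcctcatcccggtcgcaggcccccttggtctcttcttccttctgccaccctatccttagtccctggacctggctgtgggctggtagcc

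The libraries held 2054584 and 651426 reads on named genes in cKO and from 1594803 to 4719293 in WT. In cKO Hif1a had 22.2 and 13.6 CPM, against 37.7, 35.3, 69.4, 95.9, 105.6 and 49.3 CPM in WT replicates 1 to 6, with no overlap. CPM is a read count scaled to the library's depth after TMM normalisation. On the log2 scale cKO over WT came to -1.84 ± 0.58 (SE), with an adjusted p = 0.369 in edgeR's quasi-likelihood test. Granulosa markers were present in every library, with 14 of 14 detected in each group. Their summed level was 6148 and 2307 CPM in cKO, against 4267 to 64771 CPM in WT, a range that holds cKO replicate 1 and not cKO replicate 2. The mitochondrial genome took 8.87% and 10.5% of reads in cKO and from 1.42% to 3.65% in WT, and from 12120 to 12847 genes in cKO and from 13597 to 14727 in WT had at least 5 reads. With the count of detected genes as a term in edgeR, the log2 fold change of Gja1 was -0.62 (unadjusted p = 0.677) and that of Nppc -3.73 (unadjusted p = 0.0761), against -2.53 and -3.88 without it. With the genes of the mitochondrial genome left out they were -2.54 and -3.88. The part of the mitochondrial share itself was not tested. Every cKO library had fewer detected genes than every WT library, so the count of detected genes and the group cannot be fully told apart.

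Nppc, the ligand gene of the pair that controls cyclic GMP, was the member with the lowest level in cKO relative to WT. In cKO it had 2.52 and 10.9 CPM (5 and 8 reads), against 20.8, 24.2, 100.1, 226, 65.8 and 85.7 CPM in WT replicates 1 to 6 (38 to 938 reads). Both cKO libraries lay below every WT library, and WT replicates 1 and 2 lay below the other WT libraries. The cKO mean was 6.70 ± 5.90 CPM (SD, n = 2), against a WT mean of 87.0 ± 75.0 CPM (SD, n = 6). The log2 fold change was -3.88 ± 1.06 (SE), with a 95% confidence interval from -6.15 to -1.61 and an unadjusted p = 0.00256 in edgeR. Over all genes the edgeR adjusted p = 0.369, so Nppc did not pass the threshold of 0.05. DESeq2 called it lower (log2 fold change -3.61, adjusted p = 0.00874), and the cKO level rests on 13 reads in all. Over all alternatives the adjusted p of Nppc ran from 2.69e-05 to 1.0. Among the libraries numbered 1 and 2 alone, the log2 fold change was -1.71 (unadjusted p = 0.127, edgeR); both cKO values lay below both WT values.

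Kitl, the other granulosa ligand gene, had 28.3 and 13.6 CPM in cKO, against 19.7, 30.2, 24.4, 49.8, 63.7 and 23.7 CPM in WT replicates 1 to 6. The groups overlapped, and only cKO replicate 2, with 10 reads, lay outside the WT range. For Kitl the log2 fold change was -0.72 ± 0.59 (SE, 95% confidence interval from -1.99 to 0.54, edgeR adjusted p = 0.616). Leaving out cKO replicate 1 gave -1.44, leaving out cKO replicate 2 gave -0.40 and leaving out WT replicate 5 gave -0.39. With the count of detected genes, which itself differed between the groups, as a term it turned to 1.19 (unadjusted p = 0.215, edgeR).

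Npr2, the receptor gene for the Nppc product, had 685 and 527 CPM in cKO, against 478, 599, 619, 281, 244 and 337 CPM in WT replicates 1 to 6. It was abundant in every library, and the groups overlapped. For Npr2 the log2 fold change was 0.51 ± 0.48 (SE, 95% confidence interval from -0.53 to 1.55, edgeR adjusted p = 0.672), or 0.25 without cKO replicate 1. The sign opposite to that of Nppc was kept in 21 of 22 alternatives. The exception was a fit with the count of detected genes as a term (-0.55). The antisense gene Gm12473 overlaps exons of Npr2, and the reads carry no strand, so reads of the 2 genes cannot be told apart where they overlap. The other 5 members have no exon overlap with another gene in GENCODE M21.

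Kit, the receptor gene for KIT ligand, had 33.3 and 12.2 CPM in cKO (66 and 9 reads), against 8.74, 4.89, 1.94, 5.53, 1.58 and 20.6 CPM in WT replicates 1 to 6. WT replicate 6, with the largest oocyte marker sum, was the 1 WT library above cKO replicate 2. For Kit the log2 fold change was 1.67 ± 0.88 (SE, 95% confidence interval from -0.22 to 3.55, edgeR adjusted p = 0.448). Leaving out cKO replicate 1, which had the highest value of all libraries, gave 0.70. It was 2.42 in the 6 libraries other than WT replicates 2 and 6 (unadjusted p = 0.0187, edgeR adjusted p = 0.451), and 1.80 among the libraries numbered 1 and 2. WT replicate 6 had the most Kit among WT, so leaving it out raises the fold change in any case.

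Gja1, the main granulosa connexin gene, had 472 and 269 CPM in cKO, against 467, 731, 2078, 4168, 3395 and 2055 CPM in WT replicates 1 to 6. WT replicate 1 lay just below cKO replicate 1, and WT replicates 3 to 6 lay above all other libraries. The cKO mean was 370 ± 143 CPM (SD, n = 2), against a WT mean of 2149 ± 1448 CPM (SD, n = 6). The log2 fold change was -2.53 ± 0.89 (SE, 95% confidence interval from -4.45 to -0.62), with an unadjusted p = 0.0130 and an adjusted p = 0.369 in edgeR. DESeq2 called it lower (log2 fold change -2.42, adjusted p = 0.0190), and over all alternatives the adjusted p ran from 0.0190 to 1.0. Among the libraries numbered 1 and 2 it was -0.60 (unadjusted p = 0.316, edgeR).

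Gja4, the connexin gene of the oocyte surface, had 15.6 and 5.43 CPM in cKO (31 and 4 reads), against 10.9, 47.6, 5.43, 12.7, 16.4 and 60.8 CPM in WT replicates 1 to 6. WT replicates 2 and 6 stood above all other libraries, and the groups overlapped. The log2 fold change was -1.23 ± 0.91 (SE, 95% confidence interval from -3.18 to 0.73, edgeR adjusted p = 0.583). Leaving out cKO replicate 1 gave -2.30, leaving out cKO replicate 2 gave -0.76 and leaving out WT replicate 6 gave -0.68. In the 6 libraries other than WT replicates 2 and 6 it was -0.02, and leaving out the highest WT values raises the fold change in any case.

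**Figure D1:**
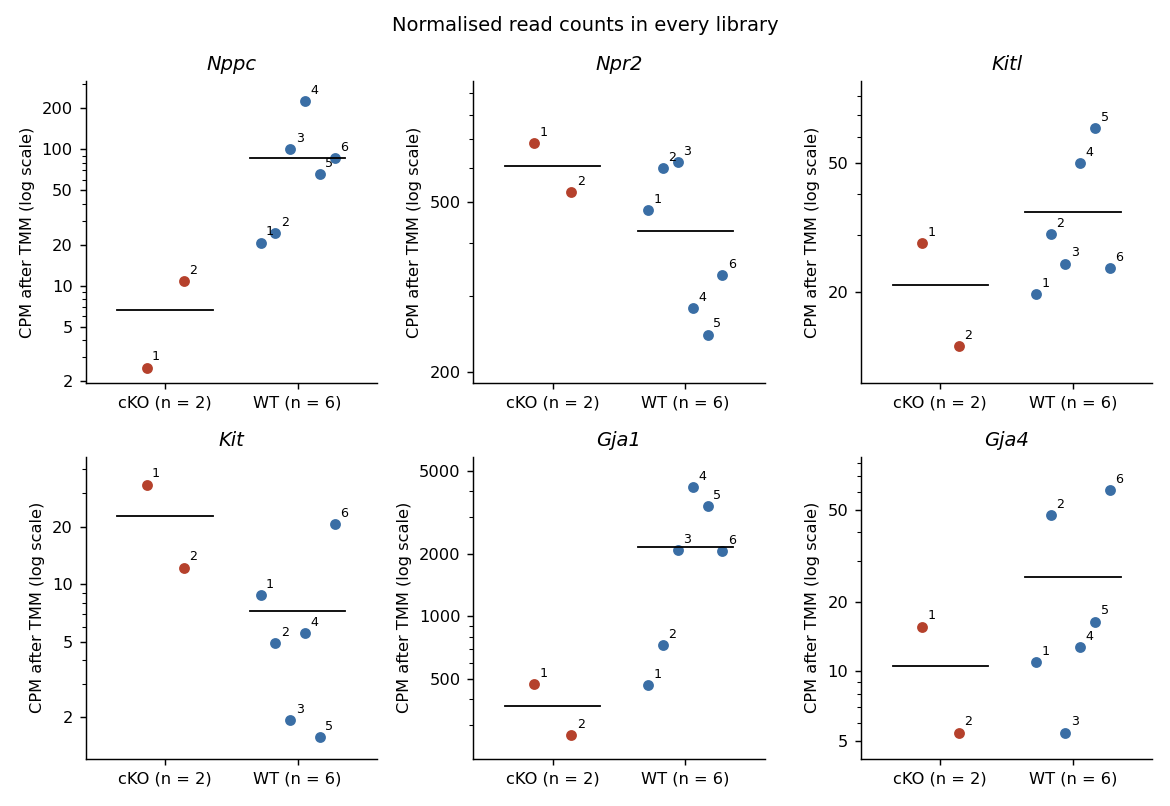
Normalised read counts (CPM after TMM, log scale) of the 6 genes in cKO (red, n = 2) and WT (blue, n = 6) libraries, with replicate numbers beside the points and a line at each group mean. Nppc is the 1 gene without overlap, with cKO at 2.52 and 10.9 CPM and WT from 20.8 to 226 CPM, while Gja1 in WT replicates 1 and 2 (467 and 731 CPM) lies near the cKO libraries (472 and 269 CPM).

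Across the 6 genes, edgeR called 0 at an adjusted p under 0.05, as it did over all 15102 genes tested (0%), while DESeq2 called 274 of the 6881 genes to which it gave an adjusted p (3.98%). DESeq2 gave an adjusted p to 4 of the 6 genes, not to Kit and Gja4, and called Nppc and Gja1 among them, both lower in cKO, as were 243 of its calls (3.53%). Without a filter on low counts edgeR called 478 of 25322 genes (1.89%), of which 405 were lower in cKO (1.6%), and Nppc (adjusted p = 2.69e-05) and Gja1 (adjusted p = 0.0468) were among the lower ones. At an unadjusted p under 0.05 edgeR had 2 of the 6 lower in cKO and 0 higher, against 1342 genes lower (8.89%) and 513 higher (3.4%) of all genes. With sample weights limma-voom called 0 genes, and limma on log2(TPM + 1) called 5. In 968 genes (6.41%) both cKO libraries lay below all WT libraries, and Nppc was the 1 member among them. In 909 genes (6.02%) both lay above, with 0 members. All 6 genes passed the filter on low counts.

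**Figure D2:**
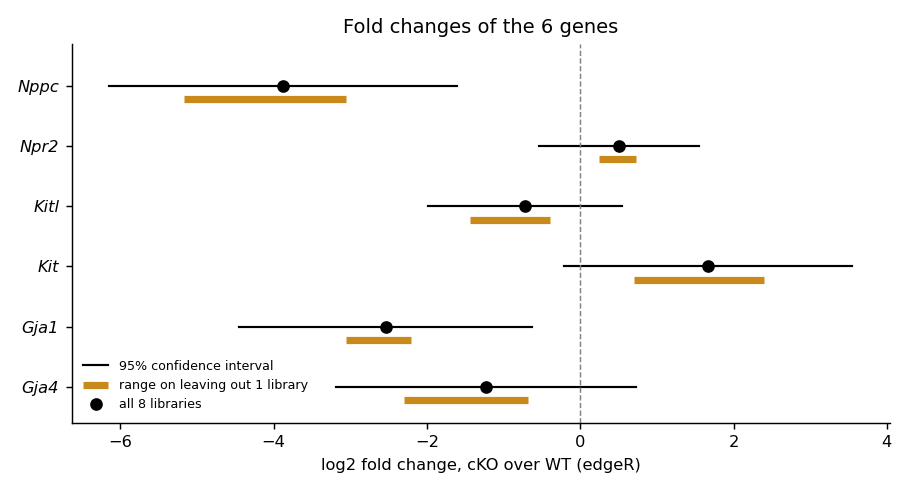
Log2 fold change of cKO over WT from edgeR for the 6 genes (black points) with its 95% confidence interval (black lines) and the range on leaving out each of the 8 libraries in turn (orange bars). The interval lies below 0 for Nppc (-6.15 to -1.61) and Gja1 (-4.45 to -0.62) and spans 0 for the other 4 genes.

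Levels of different genes were compared per length, in the deposited TPM, which the authors scaled by effective transcript length. In cKO the means were 321 ± 35.1 TPM for Npr2, 162 ± 30.9 for Gja1, 12.1 ± 6.42 for Kit, 7.86 ± 7.89 for Nppc, 6.75 ± 2.05 for Kitl and 5.83 ± 2.93 for Gja4 (SD, n = 2 each). In WT they were 734 ± 439 TPM for Gja1, 212 ± 98.2 for Npr2, 91.7 ± 73.1 for Nppc, 14.5 ± 13.1 for Gja4, 10.2 ± 3.61 for Kitl and 2.52 ± 2.48 for Kit (SD, n = 6 each). Npr2 was above Gja1 in both cKO libraries and in WT replicates 1 and 2, and below it in WT replicates 3 to 6. In cKO the values of the 4 lower genes overlapped, while Npr2 lay above Gja1 and both lay above the other 4. In WT the values of each gene overlapped those of the next in the order given, while Gja1 lay above Nppc, and Kitl above Kit, in all 6 libraries.

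The balance of ligand to receptor was followed within each library as log2 of the TPM ratio, each gene + 1 TPM. For Nppc over Npr2 it was -6.50 and -4.58 in cKO, against -3.30, -3.52, -1.57, 0.88, -0.67 and -0.98 in WT replicates 1 to 6. The groups did not overlap, and the difference of means was -4.02, or -2.13 among the libraries numbered 1 and 2. For Kitl over Kit it was 0.0961 and -1.49 in cKO, against 1.16, 2.29, 1.67, 2.12, 3.59 and 0.42 in WT replicates 1 to 6. These groups did not overlap either, with a difference of -2.57, which was -1.54 with 5 TPM added in place of 1. For Gja1 over Gja4 it was 4.38 and 4.89 in cKO, against 4.84, 3.23, 7.51, 7.31, 6.72 and 4.17 in WT replicates 1 to 6. The connexin groups overlapped, and their difference of -0.996 became 0.60 among the libraries numbered 1 and 2. These balances are descriptions with no test, since the genes of a pair share each library. The share of all gene pairs without overlap was not computed, so nothing particular to these pairs is read from it. Nppc alone already lay lower in both cKO libraries than in all WT libraries. In cKO replicate 2, Kitl over Kit rests on 10 reads of Kitl and 9 of Kit.

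**Figure D3:**
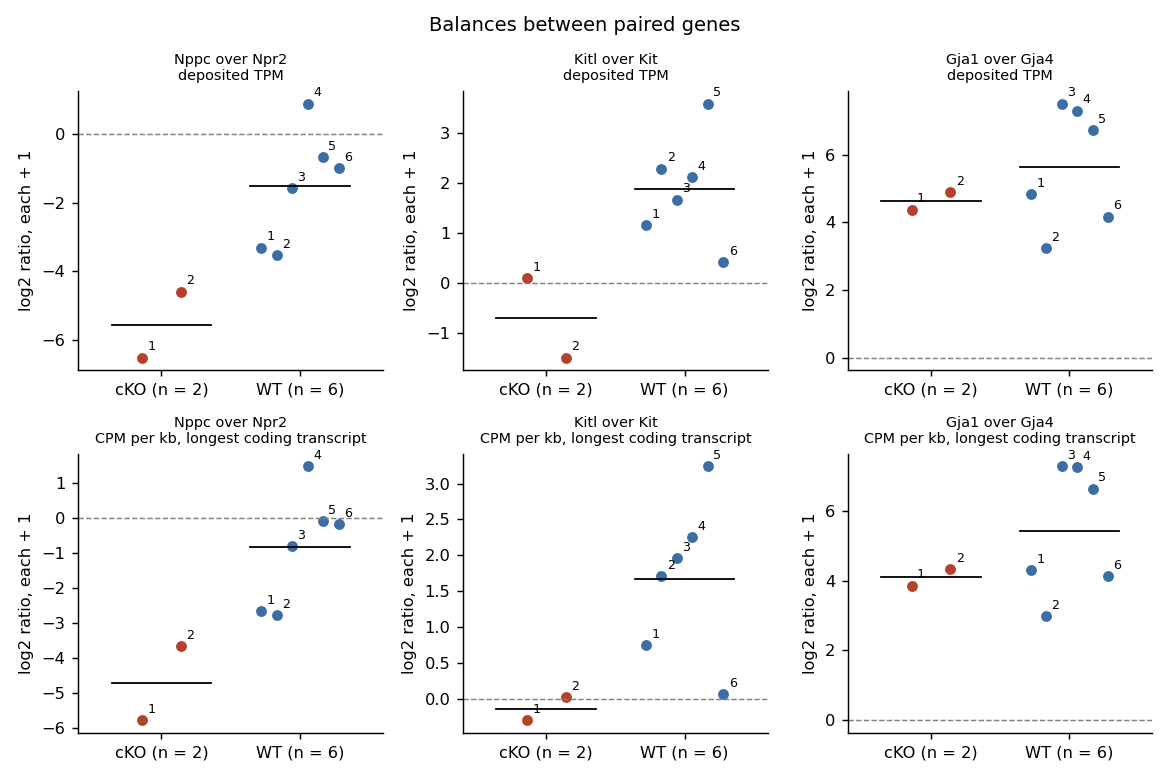
Log2 ratios between paired genes in cKO (red, n = 2) and WT (blue, n = 6) libraries, with replicate numbers and a line at each group mean. The upper row uses deposited TPM and the lower row CPM per kilobase of the longest coding transcript, each + 1, and Nppc over Npr2 and Kitl over Kit lie lower in both cKO libraries than in all WT libraries on both scales.

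The lengths behind the TPM bear on these levels. For Npr2 the deposited mean transcript length was 395 and 397 bases in cKO and from 398 to 415 in WT, against 3660 bases for its longest coding transcript in GENCODE M21. For Gja1 it was 293 and 301 bases in cKO and 302, 336, 349, 368, 362 and 373 bases in WT replicates 1 to 6, against 3182 bases. Both genes thus had mean lengths far below their longest coding transcript, and for both the cKO lengths lay below all WT lengths. For Kit it was 514 and 231 bases in cKO and from 354 to 1147 bases in WT, against 5241 bases. The 231 bases are below the shortest Kit transcript of that annotation (354 bases), so the tables were not made with exactly that transcript set. Nppc and Gja4 have 1 transcript each, of 1042 and 1685 bases. On CPM per kilobase of the longest coding transcript, a scale added after these lengths were seen, Npr2 had 166 ± 30.6 in cKO (SD, n = 2) and 117 ± 44.4 in WT (SD, n = 6), against 6.43 ± 5.66 and 83.5 ± 72.0 for Nppc. The difference in the Nppc to Npr2 balance was then -3.89, and that of Kitl to Kit -1.80, again without overlap, though cKO replicate 2 (0.0310) lay close to WT replicate 6 (0.0726). With a length offset in edgeR the log2 fold change of Kit was 2.86 (unadjusted p = 0.00434, edgeR adjusted p = 0.406), against 1.67 without it.

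**Figure D4:**
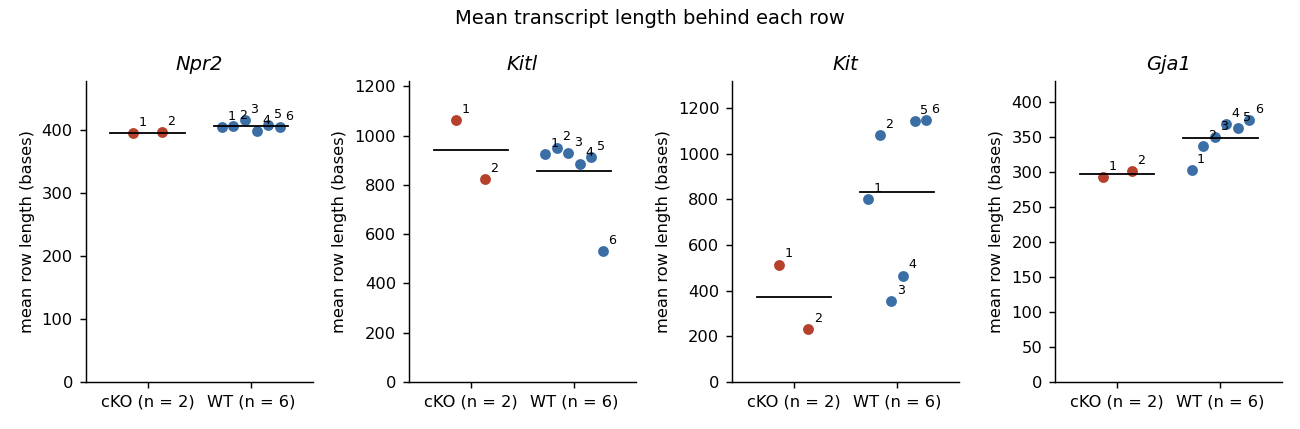
Mean transcript length in bases that the authors' tables give for the rows of Npr2, Kitl, Kit and Gja1 in cKO (red, n = 2) and WT (blue, n = 6) libraries, with replicate numbers and a line at each group mean. The lengths of Gja1 are 293 and 301 bases in cKO and 302 to 373 bases in WT, and those of Kit spread from 231 to 1147 bases.

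The marker sums of other cell types were set beside the members. Oocyte markers, 18 of 18 detected in WT and 14 in cKO (Nobox, Sohlh1, Dazl and Dppa3 at 0 reads), summed to 68.1 and 54.3 CPM in cKO, against 205, 715, 26.8, 32.9, 18.9 and 2497 CPM in WT replicates 1 to 6. WT replicates 2 and 6, with the largest sums, were also the 2 libraries with the most Gja4, and WT replicate 6 had the most Kit among WT. In the cKO libraries Kit stood at 33.3 and 12.2 CPM with an oocyte sum of 68.1 and 54.3 CPM, while WT replicate 2 had 4.89 CPM of Kit with a sum of 715 CPM. Theca markers (6 of 6 detected) summed to 214.5 and 144 CPM in cKO and from 41.5 to 268 in WT, and stroma markers (10 of 10) to 1872 and 478 in cKO and from 37.8 to 1394 in WT. Endothelial markers (11 of 11), of interest since endothelium also makes connexin 37, summed to 431 and 323 CPM in cKO and from 106 to 520 in WT. Blood and macrophage markers (9 of 9) summed to 463 and 82.9 CPM in cKO and from 23.2 to 369 in WT. Of 6 mast cell markers, checked because mast cells carry KIT, Tpsb2 and Fcer1a had 0 reads in every library, and in cKO so did Mcpt4 and Ms4a2. The mast cell sum, most of it Hdc, was 3.53 and 12.2 CPM in cKO and from 12.2 to 30.5 in WT. Fewer cells of a type and less RNA per cell cannot be told apart in such libraries.

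Set against the granulosa marker sum of its own library, Gja1 had 7.68 and 11.7 CPM per 100 CPM of the sum in cKO, against 10.9, 7.59, 9.71, 6.44, 7.95 and 8.66 in WT replicates 1 to 6. The groups overlapped on this scale, which was added after the values were seen, with cKO replicate 2 above the WT range. Inha and Inhba, inhibin and activin subunit genes, made 60.3% and 14.01% of the sum pooled over all 8 libraries. In the cKO libraries Inha had 2566 and 648 CPM, of sums of 6148 and 2307 CPM. The log2 fold change was -3.41 for Inha, -4.28 for Inhba, -3.03 for Hsd17b1 and -2.07 for Inhbb. For Esr2 it was -0.03, for Amh 0.22 and for Wt1 1.88, so the markers did not all move with the sum. The part of the sum in these values was not tested. Without Inha and Inhba, Gja1 had 14.6 and 16.8 in cKO, against 16.4, 15.7, 34.3, 36.6, 41.2 and 30.0 in WT replicates 1 to 6. On the full sum Nppc had 0.0410 and 0.471 in cKO, against 0.487, 0.251, 0.468, 0.348, 0.154 and 0.361 in WT replicates 1 to 6, so the low value of cKO replicate 1 remained and that of cKO replicate 2 did not. Kit had 0.542 and 0.530 in cKO and at most 0.205 in WT, without overlap. On the sum without Inha and Inhba, Kit, Npr2 and Kitl lay higher in both cKO libraries than in all WT libraries. The share of all genes without overlap was not computed on either sum, so nothing particular to these genes is read from it. Kit had 1.03 and 0.765 in cKO and at most 0.308 in WT, and Npr2 had 21.2 and 33.0 in cKO and at most 16.8 in WT. Kitl had 0.874 and 0.850 in cKO and from 0.346 to 0.773 in WT, opposite to the direction of its mean CPM. Nppc on this sum had 0.0781 and 0.680 in cKO, against 0.730, 0.519, 1.65, 1.98, 0.798 and 1.25 in WT replicates 1 to 6. Its groups overlapped, with cKO replicate 2 above WT replicate 2 alone and cKO replicate 1 below all WT libraries.

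**Figure D5:**
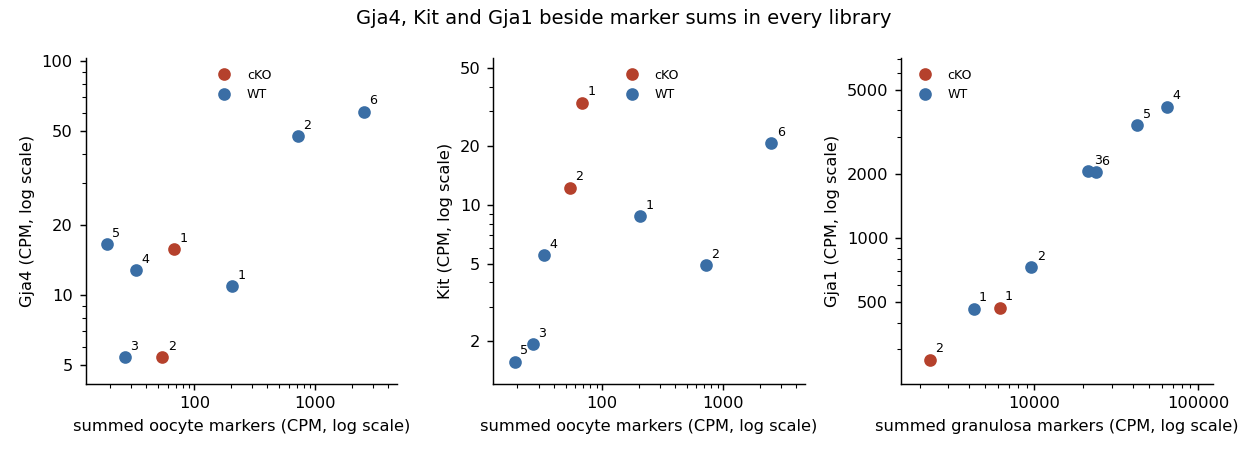
CPM of Gja4 and Kit against the summed oocyte markers, and of Gja1 against the summed granulosa markers, in cKO (red) and WT (blue) libraries, all axes on a log scale, with replicate numbers beside the points. WT replicates 2 and 6 lie highest for Gja4 (47.6 and 60.8 CPM) and the oocyte sum (715 and 2497 CPM), and Gja1 lies along the granulosa sum in all 8 libraries.

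The other genes of these pathways were followed in 5 lists, in which edgeR called 0 genes over all genes tested, and over all genes the median log2 fold change was -0.08. In the list of C-type natriuretic peptide and cyclic nucleotide signalling, 18 of 22 genes were tested, 9 with a log2 fold change below 0 and 9 above, where 52.7% of all genes were below 0, and the median was 0.14. At an unadjusted p under 0.05 it had 2 genes lower (Nppc and Impdh1) and 1 higher (Prkg2), against 8.89% and 3.4% of all genes. Impdh1, which encodes an enzyme of guanine nucleotide synthesis, had 50.5 and 38.0 CPM in cKO and from 80.9 to 115 in WT (log2 fold change -1.12 ± 0.41, edgeR adjusted p = 0.369). Prkg2 encodes a cyclic GMP-dependent kinase. It had 10.1 and 17.7 CPM in cKO (20 and 13 reads) and from 0.721 to 5.47 CPM in WT (3 to 12 reads). Its log2 fold change was 2.56 ± 0.98 (edgeR adjusted p = 0.374), on few reads in every library. Adcy9, an adenylyl cyclase gene, had 32.3 and 35.3 CPM in cKO and from 19.7 to 163 CPM in WT (log2 fold change -1.29 ± 0.63, edgeR adjusted p = 0.424). Npr3, Nppa, Nppb and Gpr12 were too low to test. Leaving out cKO replicate 2 gave a median of -0.05, and leaving out WT replicate 6 gave 0.36.

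The KIT list (16 of 16 tested) had 12 genes with a log2 fold change below 0 (52.7% of all genes) and 4 above, and a median of -0.41, which was -0.12 without WT replicate 5. At an unadjusted p under 0.05 it had 1 gene lower, Pik3r1, and 0 higher, against 8.89% and 3.4% of all genes. Pik3r1, a regulatory subunit gene of PI 3-kinase, had 35.3 and 28.5 CPM in cKO and from 36.6 to 112 CPM in WT (log2 fold change -1.27 ± 0.49, edgeR adjusted p = 0.375). Gab2 and Gab1, genes of docking proteins, were at -1.15 ± 0.58 and -0.59 ± 0.47 on the log2 scale.

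Among 20 connexin and 3 pannexin genes, 7 were tested and 16 were too low. Of the 7, 3 had a log2 fold change below 0 (52.7% of all genes), and at an unadjusted p under 0.05 Gja1 was lower (8.89% of all genes) and 0 were higher (3.4%). Gja1 took 90.4% and 80.5% of connexin reads in cKO, against 90.3%, 92.7%, 99.4%, 99.2%, 99.0% and 95.2% in WT replicates 1 to 6. Gjc1, which encodes connexin 45, had 30.8 and 16.3 CPM in cKO and from 1.16 to 27.3 CPM in WT (log2 fold change 0.97 ± 0.89, edgeR adjusted p = 0.660). Panx1 had 5.55 and 35.3 CPM in cKO and from 15.2 to 52.7 in WT (log2 fold change -0.50 ± 0.71). Panx2 had 4.04 and 2.72 CPM in cKO, on 10 reads, and was at 0 reads in all WT libraries but replicate 2 (2.72 CPM). The median over the 7 genes was 0.97, and it was -1.32 without cKO replicate 2, so no direction can be read from this list.

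Oocyte growth factors and their granulosa receptors made a list that also held Slc38a3, which is neither (13 of 13 tested, 8 below 0 and 5 above, against 52.7% of all genes below 0). Its median was -0.71, or -2.29 with cKO replicate 1 left out and -0.39 with WT replicate 6 left out. At an unadjusted p under 0.05 the list had 2 genes lower, both receptor genes, and 0 higher, against 8.89% and 3.4% of all genes. Bmpr2, which encodes the type II receptor of GDF9 and BMP15, had 115 and 66.6 CPM in cKO, against 91.8, 157, 633, 352, 388 and 293 CPM in WT replicates 1 to 6 (log2 fold change -1.81 ± 0.69, edgeR adjusted p = 0.374). Bmpr1b, a type I receptor gene, had 25.7 and 10.9 CPM in cKO, against 15.8, 26.1, 144, 96.7, 83.6 and 64.7 CPM in WT replicates 1 to 6 (log2 fold change -1.92 ± 0.78, edgeR adjusted p = 0.378). As with Gja1, WT replicates 1 and 2 lay near the cKO libraries in both genes. Gdf9, the oocyte factor gene, had 11.6 and 5.43 CPM in cKO and from 0.450 to 508 CPM in WT, where replicate 6 was the highest, as in the oocyte sum.

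Genes of adhesion and of the transzonal projections by which granulosa cells reach the oocyte (12 of 12 tested, 9 below 0 and 3 above, against 52.7% of all genes below 0) had a median of -0.37, or -0.09 without WT replicate 6. The 1 gene at an unadjusted p under 0.05 was Ctnnb1, which encodes beta-catenin, lower in cKO as were 8.89% of all genes. It had 37.3 and 6.79 CPM in cKO, against 41.5, 41.3, 19.8, 233, 214 and 160 CPM in WT replicates 1 to 6 (log2 fold change -2.35 ± 0.98, edgeR adjusted p = 0.380). Ctnna1 and Cdh2, which encode alpha-catenin and N-cadherin, were at -0.91 ± 0.49 and -1.30 ± 0.74.

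To place each member among all genes, likeness was measured as the root mean square difference of centred log2(CPM + 1) over the 8 libraries, against 9600 named genes with a mean of at least 10 CPM. Of the 15 pairs of members, Nppc and Gja1 were closest (0.90), then Kitl and Gja1 (0.97), and Nppc and Kit were farthest apart (2.73). The genes closest to Nppc were Robo1 (0.50), Phyh (0.55) and Bivm (0.66). Those closest to Npr2 were Vegfa, Ampd2 and Ctdspl (each 0.16), and those closest to Kitl were Ptdss2, Hexa (each 0.17) and Blmh (0.22). Clcn6 (0.40), Nadsyn1 (0.47) and Zfp142 (0.57) were closest to Kit, Tmem9 (0.23), Naglu (0.25) and Cox7a2l (0.27) to Gja1, and Kif17 (0.29), Mphosph6 (0.39) and Dtx2 (0.39) to Gja4. Of these, Vegfa, a growth factor gene, had 59.6 and 55.7 CPM in cKO, against 44.3, 42.1, 53.5, 23.8, 18.2 and 27.3 CPM in WT replicates 1 to 6, with WT replicates 1 to 3 above WT replicates 4 to 6 as in Npr2. Tmem9, which lay closest to Gja1, had 9.59 and 6.79 CPM in cKO, against 13.1, 19.0, 62.4, 89.0, 64.6 and 56.4 CPM in WT replicates 1 to 6, and again WT replicates 3 to 6 were the high ones.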

How the data were processed

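Salmon-style tables were deposited by the authors, 1 for each library, holding estimated counts, TPM and lengths. HISAT2, Salmon and mm10 are named without versions, per the submitters' processing notes, with the annotation not given in the sources used here. Rows without a gene name (1548 of 36635, with 0.435% to 0.739% of the reads) were not used, and 34130 of the other 35087 matched GENCODE M21.

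Estimated counts were rounded, filtered with filterByExpr (minimum count 10, total 15), scaled by TMM and compared with edgeR 4.0.16 in R 4.3.3 (glmQLFTest, group as the only term, Benjamini-Hochberg adjustment). The SE came from the F statistic. The biological coefficient of variation was 0.699. DESeq2 1.42.0 and limma 3.58.1 were alternatives. The fit was tested on simulated data. Under TMM the median gene stood at -0.08 (log2), and under the size factors of DESeq2 at 0.05. A library's limit of 3 reads was from 0.636 to 4.61 CPM before TMM scaling, for counting error only, as reads carry no molecular identifiers. Over 28 library pairs the chi-square per degree of freedom was at least 14.1, so none were duplicates.

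The members, lists and tests were chosen with earlier results of these data known, and so was the comparison of the libraries numbered 1 and 2 alone, since granulosa genes had set WT replicates 1 and 2 apart. Added after the data were seen were the balances per kilobase and without WT replicates 2 and 6, and the members per granulosa marker sum. Named were the 6 genes and Hif1a, the 3 non-members with the smallest p per list, connexin and pannexin genes with a mean of at least 5 TPM, the 3 genes most like each member, and markers at 0 in a group. Vegfa and Tmem9 were given in full after their values were seen. Promoter sequences are from RefSeq.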

Additional observations from a re-analysis of the deposited data

Results flagged for a closer look

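A test for a sample far from the rest was applied to 21 sets of WT values, of which chance flags about 1 in 20, and it flagged 2. The oocyte marker sum was 2497 CPM in WT replicate 6, against 715 CPM in the next WT library. The mean transcript length of Kitl was 532 bases in WT replicate 6, while the other WT libraries lay between 886 and 951 bases and the cKO libraries at 1062 and 823 bases. The same library thus stood apart in both.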

How the results depend on the processing

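Over all genes edgeR's 0 calls became 478 without a filter on low counts, 1 with the replicate number as a block, 274 with DESeq2 and 5 with limma on log2(TPM + 1). Leaving out each library in turn gave from 0 to 1. Without the filter Nppc (-3.93) and Gja1 (-2.62) were called, and likewise with DESeq2 (-3.61 and -2.42). With detected genes as a covariate Npr2 (-0.55) and Kitl (1.19) turned direction, Gja1 was at -0.62 and Nppc at -3.73, both at an unadjusted p over 0.05. The cause was not tested. Nppc, Gja1, Kit and Gja4 kept theirs in all 22, 22, 20 and 21 alternatives that gave them a value (DESeq2 gave Kit and Gja4 no adjusted p, and Kit missed the filter of 10 reads in 6 libraries). Leaving out a library gave from -5.18 to -3.06 for Nppc, -3.06 to -2.21 for Gja1, 0.70 to 2.40 for Kit and -2.30 to -0.68 for Gja4. With 1 cKO library left, it is assumed to vary like WT. The balance of Nppc over Npr2 was -2.13 in the libraries numbered 1 and 2. Genes at an unadjusted p under 0.05 ran from 120 to 1940 lower and from 59 to 1563 higher in cKO, with 572 and 293 when cKO replicate 2 was left out. Same-numbered libraries of the groups had deviations from their group means correlated at -0.289 and -0.165. With 2 cKO libraries the deviations of these mirror each other, so the values cannot show whether the numbers pair the libraries. With the replicate block, Nppc was at -2.04 and Gja1 at -0.71, and no member was called. Low depth limits Nppc (13 reads in cKO) and Gja4 (35).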

Other observations

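The genes given here were chosen after their values were seen, and those of the oocyte side of meiotic arrest were low in most libraries. Gpr3, whose receptor keeps cyclic AMP high in the oocyte, had 2.02 and 5.43 CPM in cKO, against 0, 5.17, 0, 0.721, 0.676 and 16.3 CPM in WT replicates 1 to 6. Pde3a, the phosphodiesterase gene of the oocyte, had 2.52 and 9.51 CPM in cKO, against 3.28, 4.62, 2.33, 1.92, 3.83 and 11.9 CPM in WT replicates 1 to 6. Both were highest among WT in replicate 6, the library with the most oocyte markers. Gnas, which encodes the stimulatory G protein subunit between GPR3 and adenylyl cyclase, was abundant, with 916 and 398 CPM in cKO and from 657 to 1160 CPM in WT. Npr1, which encodes the receptor for atrial natriuretic peptide, had 74.7 and 14.9 CPM in cKO, against 57.9, 5.44, 21.3, 14.7, 3.60 and 5.21 CPM in WT replicates 1 to 6. None of the 4 had an unadjusted p under 0.05 in edgeR. Myo10, which encodes a motor protein of transzonal projections, had 324 and 287 CPM in cKO, against 321, 334, 161, 174, 183 and 240 CPM in WT replicates 1 to 6. WT replicates 1 and 2 resembled the cKO libraries in this gene, as they did in Gja1 and Bmpr2.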
